A study of Mus musculus with 43 samples.

Results

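The respiratory chain genes are the nuclear protein-coding genes whose symbols begin with Nduf, Uqcr or Atp5, the genes Sdha to Sdhd, and the Cox4 to Cox8 subunit genes. This rule on symbols found 96 of 21523 protein-coding genes. Grouped by symbol, they comprise 41 genes counted as complex I subunits, 8 complex I assembly factors (Ndufaf), 4 complex II subunits, 8 of complex III, 18 of complex IV and 17 of complex V. These groups follow the symbol alone and were not checked against the known make-up of each complex. Ndufa4 and Ndufa4l2, for example, are counted under complex I by name only. EKLF, the erythroid zinc-finger factor encoded by Klf1, was mapped by chromatin immunoprecipitation (ChIP) in mouse fetal liver at E13.5, mid-gestation. One group was wild type (WT) on the Nan strain, and the other was heterozygous for Nan (Nan/+), an allele that changes a zinc finger of EKLF while the other Klf1 copy stays intact. Both groups used antibody 7B2a and livers of littermates, dispersed into single cells with no sorting step described. Each group had 3 ChIP libraries of 72023512 to 103170594 tags, which the authors combined into 1 list of called regions, 9181 in WT and 15564 in Nan/+. The other groups of the series were not analysed here.

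The lists give positions only. They hold no strength per region, no value per library and no expression, so differences between genotypes have no replicate check and the labelled erythroid cell type could not be checked against its markers. The WT list was called with a smaller peak size than the Nan/+ list. A region seen in 1 list may lie just under the calling threshold in the other. Intervals below are exact binomial (Clopper-Pearson) 95% intervals over genes or regions, and cover counting error only.

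The respiratory chain passes electrons from NADH (complex I) and succinate (complex II) through ubiquinone, complex III and cytochrome c to oxygen at complex IV, and the proton gradient built on the way drives ATP synthesis by complex V. Most subunits are encoded in the nucleus and have to be made in step with the few encoded by mitochondrial DNA. In most tissues their promoters are known as targets of NRF1, of the ETS factor GABP and of YY1. Red cell precursors use these complexes while they make heme, and lose them with their mitochondria at the end of maturation.

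A region was assigned to a gene when its centre fell between the ends of the gene or in the 10 kb flank on either side. A start window was the stretch from 250 bases before to 50 after a RefSeq start (GRCm38.p6, the assembly of mm10). These windows were found for 78 of the 96 genes, 5 of them with 2 starts, and a window was counted when a region overlapped it by at least 1 bp. Start windows of 8 genes are printed in the next paragraph, because the contrast between the lists lay at the starts. They are the 4 genes with a region over the window in both lists, and, among genes with 1 start whose window was covered in 1 list alone, the 2 per list whose region was centred nearest to it. Ndufv3 and Uqcr11 tied at 11 bases, and the first by symbol was taken. Capitals mark matches, on either strand, to the 4 spellings of the EKLF site that were searched (CCACACCC, CCACGCCC, CCCCACCC and CCCCGCCC).

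Windows were read from RefSeq 5′ to 3′ on the strand of the gene. In both lists were Atp5pb (chr3:105959214-105959513, minus strand), Ndufaf8 (chr11:120098684-120098983, plus strand), Ndufb10 (chr17:24724374-24724673, minus strand) and Sdhd (chr9:50603800-50604099, minus strand). In WT alone were Cox6a1 (chr5:115348909-115349208, minus strand) and Ndufv3 (chr17:31519865-31520164, plus strand). In Nan/+ alone were Atp5e (chr2:174464052-174464351, minus strand) and Cox6b1 (chr7:30626065-30626364, minus strand). Windows in lower case throughout hold no match.
Atp5pb: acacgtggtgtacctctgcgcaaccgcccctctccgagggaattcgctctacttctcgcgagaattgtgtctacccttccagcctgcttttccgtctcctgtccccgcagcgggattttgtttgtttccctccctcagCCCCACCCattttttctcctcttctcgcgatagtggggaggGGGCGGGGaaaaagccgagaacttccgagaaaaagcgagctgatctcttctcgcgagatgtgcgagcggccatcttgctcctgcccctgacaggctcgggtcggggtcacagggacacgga
Ndufaf8: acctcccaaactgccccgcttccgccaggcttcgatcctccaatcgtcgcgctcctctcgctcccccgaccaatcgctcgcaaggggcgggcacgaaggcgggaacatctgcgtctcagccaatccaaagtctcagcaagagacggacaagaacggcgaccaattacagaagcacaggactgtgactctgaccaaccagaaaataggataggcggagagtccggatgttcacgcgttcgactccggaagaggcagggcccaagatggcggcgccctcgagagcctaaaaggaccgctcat
Ndufb10: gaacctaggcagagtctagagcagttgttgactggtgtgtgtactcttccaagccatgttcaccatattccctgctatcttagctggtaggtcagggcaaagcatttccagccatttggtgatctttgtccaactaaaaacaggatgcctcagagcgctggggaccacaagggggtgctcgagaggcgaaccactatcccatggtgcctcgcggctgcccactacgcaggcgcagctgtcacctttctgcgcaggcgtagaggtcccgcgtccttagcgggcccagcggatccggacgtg
Sdhd: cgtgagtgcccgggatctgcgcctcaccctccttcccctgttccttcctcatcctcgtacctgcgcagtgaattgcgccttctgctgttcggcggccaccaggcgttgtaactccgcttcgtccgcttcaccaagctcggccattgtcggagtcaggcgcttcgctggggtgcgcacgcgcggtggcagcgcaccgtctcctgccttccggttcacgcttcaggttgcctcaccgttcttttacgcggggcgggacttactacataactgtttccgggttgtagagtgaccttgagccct
Cox6a1: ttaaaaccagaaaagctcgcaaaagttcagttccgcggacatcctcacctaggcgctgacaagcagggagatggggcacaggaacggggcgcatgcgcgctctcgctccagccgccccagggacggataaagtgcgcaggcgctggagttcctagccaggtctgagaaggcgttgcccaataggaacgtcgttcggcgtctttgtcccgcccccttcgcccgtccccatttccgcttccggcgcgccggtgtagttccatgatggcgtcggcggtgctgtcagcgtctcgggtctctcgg
Ndufv3: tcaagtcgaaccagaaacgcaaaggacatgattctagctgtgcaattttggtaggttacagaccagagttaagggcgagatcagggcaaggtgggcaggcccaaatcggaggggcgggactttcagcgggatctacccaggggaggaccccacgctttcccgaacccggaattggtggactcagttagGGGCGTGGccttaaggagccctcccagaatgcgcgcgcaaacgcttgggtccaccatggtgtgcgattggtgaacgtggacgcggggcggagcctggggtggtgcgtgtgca
Atp5e: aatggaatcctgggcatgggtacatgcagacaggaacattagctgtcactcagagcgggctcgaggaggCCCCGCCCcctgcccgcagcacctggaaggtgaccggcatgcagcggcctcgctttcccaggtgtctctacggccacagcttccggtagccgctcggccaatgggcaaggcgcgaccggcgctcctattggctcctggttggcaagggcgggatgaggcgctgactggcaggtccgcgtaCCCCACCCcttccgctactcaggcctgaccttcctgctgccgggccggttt
Cox6b1: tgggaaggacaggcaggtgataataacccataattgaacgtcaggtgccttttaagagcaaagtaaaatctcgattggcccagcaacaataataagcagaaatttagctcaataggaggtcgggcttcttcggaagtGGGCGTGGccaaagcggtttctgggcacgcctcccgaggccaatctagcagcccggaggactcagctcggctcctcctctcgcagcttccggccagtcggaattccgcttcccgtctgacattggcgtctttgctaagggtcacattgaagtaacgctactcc

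These 8 windows differed in the EKLF spelling. The window of Atp5pb held 2 matches, CCCCACCC from 112 to 105 bases before the start and CCCCGCCC on the opposite strand from 71 to 64 bases before it. That of Ndufv3 held 1, CCACGCCC on the opposite strand from 62 to 55 bases before the start. Among the windows of the Nan/+ list alone, Atp5e held 2 matches. CCCCGCCC, from 181 to 174 bases before the start, lay outside its Nan/+ region. CCCCACCC, from 1 base before the start to 6 after it, lay inside. Cox6b1 held 1 match, CCACGCCC on the opposite strand from 113 to 106 bases before the start, outside its Nan/+ region. The windows of Ndufaf8, Ndufb10, Sdhd and Cox6a1 held 0, which says only that these letters are absent from these 300 bases.

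In WT, EKLF regions lay over the starts of many respiratory chain genes, and most of those starts had no region in the Nan/+ list. The start window was covered in WT at 30 of 78 genes, or 38.5% (27.7 to 50.2), against 18.3% of other genes of like length and 20.4% of all protein-coding genes. In Nan/+ it was covered at 13 of 78, or 16.7% (9.18 to 26.8), against 11.3% of genes of like length and 13.0% of all. In both lists it was covered at 4 genes, or 5.13%, against 8.05% of all genes. WT alone covered 26 genes, or 33.3%, against 12.4% of all. Nan/+ alone covered 9 genes, or 11.5%, against 4.97%. Genes of like length here are the other protein-coding genes in each of 10 classes of gene length, weighted by the respiratory chain genes in the class, a description to which no test was applied.

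**Figure D1:**
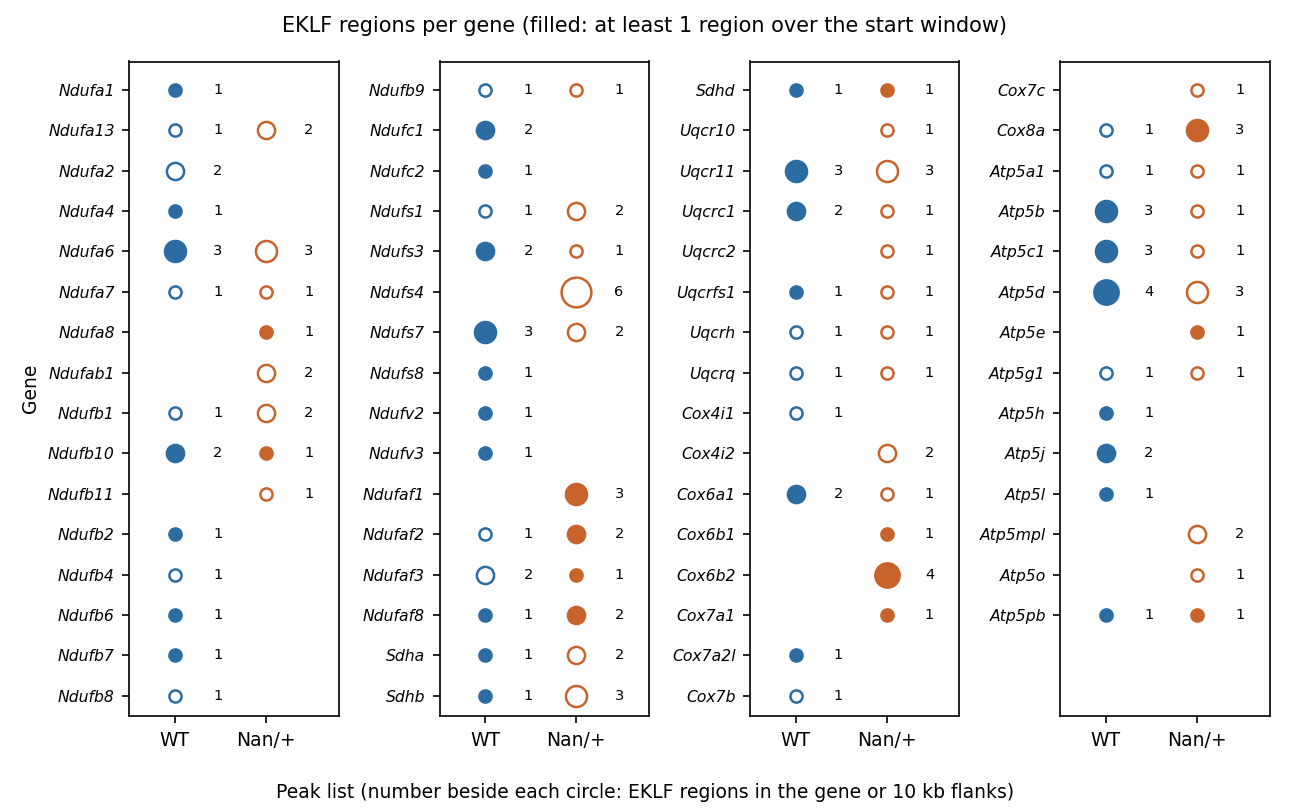
Number of EKLF regions in the gene or its 10 kb flanks for each of the 62 respiratory chain genes with a region, by list (columns: WT in blue, Nan/+ in orange; circle area and the number beside it: regions; filled circle: at least 1 region over a start window). Filled circles stand mostly in the WT column (30 genes against 13), and Ndufs4, at 6 Nan/+ regions, holds the most.

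Among complex I subunits, which form the NADH-oxidising entry of the chain and the largest group, the contrast was the widest by count. The start window was covered at 14 of 35 in WT, or 40.0%, and at 2 of 35 in Nan/+, or 5.71%. Of all genes 20.4% and 13.0% were covered. In both lists 1 was covered, Ndufb10. By share the gap was wider for complex II (100% and 33.3% of 3) and complex III (60.0% and 0.00% of 5). Ndufv2, a subunit of the NADH-binding module, had 1 WT region of 468 bp centred 17 bases before the start, and the nearest Nan/+ region lay 84.7 kb away. At Ndufv3, of the same module, the 326 bp WT region was centred 11 bases after the start, with the nearest Nan/+ region 105 kb away. Ndufs8 and Ndufs7, subunits that carry iron-sulfur clusters toward ubiquinone, had WT regions of 325 bp and 554 bp over their start windows, with gaps of 79.6 kb and 12.2 kb to the Nan/+ list. Ndufs3, a core subunit, had a WT region of 339 bp centred 89 bases before a start that lies close to the start of Kbtbd4, so the region covered both windows.

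Accessory subunit genes of the membrane arm of complex I were covered in part. Those with a WT region over the start window included Ndufb2 (568 bp), Ndufb6 (313 bp), Ndufb7 (355 bp), Ndufc1 (400 bp) and Ndufc2 (464 bp), and all of these had 0 Nan/+ regions in the gene or flanks. Ndufa1, also of the membrane arm, had a WT region of 465 bp that covered the start window of its neighbour Rnf113a1 too. Ndufa3, Ndufa11, Ndufb3, Ndufb4, Ndufb5, Ndufb8 and Ndufb11, which belong to that arm too, had no WT region over the start window, and Ndufb11 had a Nan/+ region alone. Ndufa6 had 3 regions in each list. Its WT region at the start (684 bp) overlapped no Nan/+ region, whereas the region shared by the lists lay over the start window of Smdt1, centred 8110 bases past the start of Ndufa6.

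Only Ndufa8 and Ndufb10 among complex I subunits had a Nan/+ region over the start window. At Ndufb10 the WT region (chr17:24724209-24724559) and the Nan/+ region (chr17:24724314-24724589) overlapped, centred 39 bases after and 28 bases before the start. At Ndufa8 a Nan/+ region of 226 bp covered the start window of Morn5 as well, and 0 WT regions were assigned to the gene. Ndufs4, which encodes a late-assembled subunit and spans 100 kb, had 6 Nan/+ regions and 0 WT regions. Of the 6, 5 lay inside the gene, the nearest was centred 29632 bases from the start, and 2 had the minimum width of the Nan/+ list, 176 bp. Of the 41 subunit genes 15 had a region in neither list, beside 52.4% of all protein-coding genes.

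Complex I assembly factors ran the other way by count, on few genes. Start windows were covered at 1 of 7 in WT, or 14.3%, and at 4 of 7 in Nan/+, or 57.1%. Of all genes 20.4% and 13.0% were covered. Ndufaf1, which acts early in assembly of the membrane arm, had 3 Nan/+ regions, 1 of 288 bp over the start window, and 0 in WT. Ndufaf2 had a Nan/+ region of 554 bp over a window shared with the DNA repair gene Ercc8, and its only WT region lay at the start of Smim15, at the far end of the gene. Ndufaf3 had a Nan/+ region of 686 bp over its start window and WT regions of 233 bp and 555 bp at the starts of its neighbours Impdh2 and Dalrd3. Ndufaf8 was the member covered in both lists, with a WT region of 690 bp and a Nan/+ region of 176 bp, both also over the window of Tepsin. The other 4, Ndufaf4 to Ndufaf7, had 0 regions in both lists.

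Complex II, succinate dehydrogenase, had a WT region at the start of every subunit gene with a known window, 3 of 3, and a Nan/+ region at 1. Of all genes 20.4% had a region there in WT and 13.0% in Nan/+. At Sdhd, a membrane anchor, the regions overlapped (WT chr9:50603729-50604058, 330 bp; Nan/+ chr9:50603854-50604322, 469 bp). The Nan/+ region was centred 239 bases before the start of Sdhd and the WT region 44 bases before it, and both also covered the window of Timm8b. Sdha, the flavoprotein, had a WT region of 751 bp over its window and that of Ccdc127, and its 2 Nan/+ regions lay 23426 and 32821 bases downstream. Sdhb, the iron-sulfur subunit, had a WT region of 194 bp centred 27 bases before the start. Its nearest Nan/+ region began 3.25 kb away, inside the gene. Sdhc had 0 regions in both lists.

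Complex III genes held a region at 5 of 8 in WT, or 62.5%, and at 7 of 8 in Nan/+, or 87.5%. Of genes of like length 31.8% and 30.8% did. Yet the start windows were covered at 3 of 5 in WT and at 0 of 5 in Nan/+, beside 20.4% and 13.0% of all genes. Uqcrfs1, encoding the Rieske iron-sulfur protein, had a WT region of 224 bp centred 59 bases before the start and a Nan/+ region of 176 bp centred 2173 bases into the gene. Uqcrc1, a core protein, had WT regions of 250 bp at the start and 270 bp inside the gene, and its single Nan/+ region lay in the flank. Uqcr11 had 3 regions in each list. Its WT region of 254 bp sat over the start, and the pair of regions that overlapped lay at the start of Mbd3. Uqcrb had 0 regions in both lists.

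Complex IV, cytochrome c oxidase, had the lowest share of genes with a WT region, 5 of 18 or 27.8%. In Nan/+ 7 of 18 had a region, or 38.9%. Of genes of like length 27.4% and 27.1% did. The 18 genes include the Cox copies of other tissues named in the next paragraph, all with 0 WT regions, which lower the WT share. Start windows were covered at 2 of 13 in WT, or 15.4%, and 4 of 13 in Nan/+, or 30.8%, beside 20.4% and 13.0% of all genes. In both lists 0 were covered, beside 8.05% of all genes. The WT regions lay at Cox6a1 (475 bp, centred 1 base after the start) and Cox7a2l (622 bp), the latter a factor of supercomplex assembly. The Nan/+ regions lay at Cox6b1 (237 bp, centred 32 bases after the start), Cox6b2 (805 bp), Cox7a1 (176 bp) and Cox8a (176 bp). Of these Cox6b2 and Cox7a1 are copies of other tissues. Cox4i1, the ubiquitous form of subunit IV, has no window here, and its WT region of 666 bp spanned the lower-coordinate end of the gene (chr8:120667755-120668420).

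Some members are copies that other tissues use or near-duplicates: Cox6b2, Cox7b2 and Cox8c of testis, Cox6a2, Cox7a1 and Cox8b of muscle, Cox4i2 of lung, the hypoxia-induced Ndufa4l2, and Ndufb4b and Ndufb4c. This list of 10 was drawn up after the values were seen. In WT 0 of the 10 had a region, and in Nan/+ 3 did, against 47 and 40 of the other 86 genes. Of all protein-coding genes 33.5% had a region in WT and 37.5% in Nan/+. Several of the 10, such as Ndufb4b, Ndufb4c and Cox6a2, are shorter than 1.71 kb, and of other genes up to that length 9.56% and 10.3% had a region. A share of like length was not computed for the 10. The 3 were Cox6b2 with 4 Nan/+ regions, Cox4i2 with 2, both at the minimum width, and Cox7a1 with 1. At Cox6b2 the nearest WT region lay 39.4 kb from the region over the start.

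Complex V, ATP synthase, had a region at 9 of 17 genes in each list, or 52.9%, beside 30.6% (WT) and 29.7% (Nan/+) of genes of like length. The start window was covered in 7 of 15 in WT, or 46.7%, and in 2 of 15 in Nan/+, or 13.3%, which is near the 13.0% of all genes. Atp5b, the catalytic beta subunit, had a WT region of 656 bp centred 94 bases before the start, and its only Nan/+ region lay 5213 bases before the start, nearest to Ptges3. Atp5d had the most WT regions of any member, 4, of which that over a start (281 bp) lay 0.675 kb from a Nan/+ region of 224 bp, the smallest gap among starts covered in WT alone. Atp5j shares a short interval with Gabpa, which encodes the DNA-binding subunit of GABP. A WT region of 835 bp covered windows of both genes, a second of 166 bp covered another window of Atp5j, and the nearest Nan/+ region was 99.1 kb away. Atp5l (662 bp) and Atp5h (263 bp) were covered in WT alone as well. Of the 17 genes 5 had a region in neither list, beside 52.4% of all protein-coding genes.

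Atp5pb, a peripheral stalk subunit, was the complex V gene with overlapping regions at the start. The WT region (chr3:105959042-105959492, 451 bp) enclosed the Nan/+ region (chr3:105959131-105959418, 288 bp), and the centres lay 4 and 11 bases before the start. The matches in capitals in its window fall inside both regions. Both regions also covered the window of Wdr77. Atp5e, the epsilon subunit, was covered in Nan/+ alone, by a region of 371 bp centred 34 bases after the start. Its nearest WT region was 24.6 kb away.

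**Figure D2:**
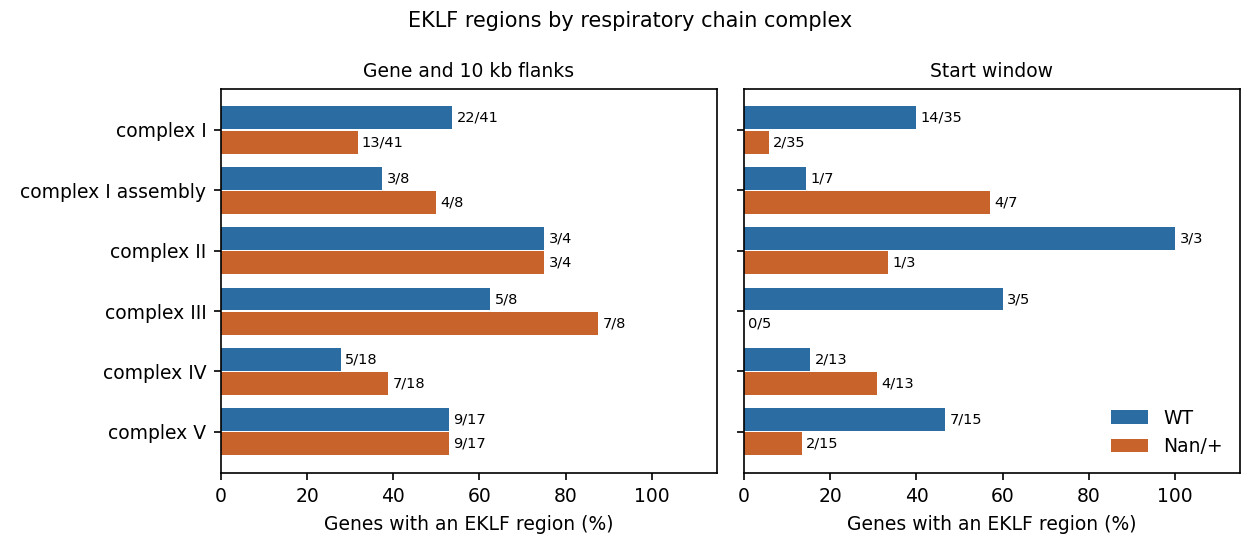
Percentage of genes of each complex with an EKLF region (left: gene and 10 kb flanks; right: start window) in WT (blue) and Nan/+ (orange), with the counts at the bar ends. At the start window WT exceeds Nan/+ for complexes I, II, III and V, while Nan/+ exceeds WT for complex I assembly factors (4 against 1 of 7) and complex IV (4 against 2 of 13). The 4 of complex IV include Cox6b2 and Cox7a1, copies used by other tissues.

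WT regions lay at starts more than Nan/+ regions did, and the whole lists differed in the same direction. Over the start windows of other genes lay 3244 of all 9181 WT regions and 2091 of all 15564 Nan/+ regions. Of 61 WT pairs of a gene and a region where a start was known, 33, or 54.1%, had the centre within 1 kb of the start, and the median distance was 405 bases. Of 63 Nan/+ pairs 17 did, and the median distance was 6699 bases. Counted by gene, a centre lay within 1 kb of the start at 31 of 78 in WT (39.7%, against 22.4% of all genes) and at 17 of 78 in Nan/+ (21.8%, against 16.4%). Without regions at or below 176 bp the counts were 31 and 11. The 31 WT regions over start windows had centres from 405 bases before to 201 after the start, with the median at 52 bases before it.

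**Figure D3:**
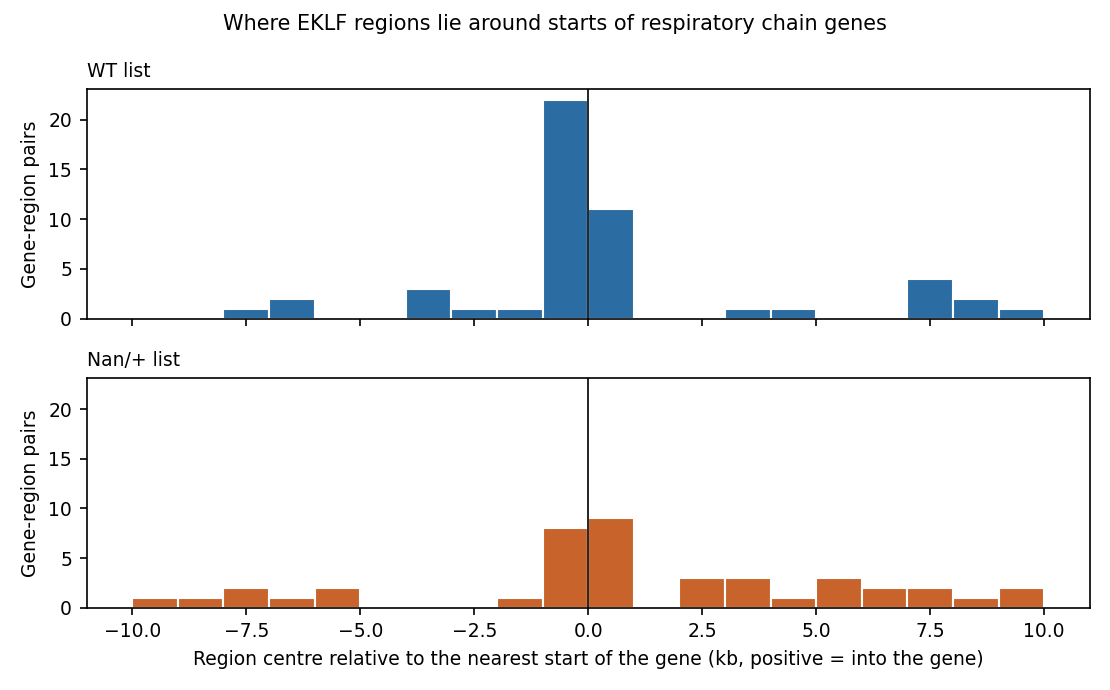
Number of gene-region pairs by the position of the region centre relative to the nearest start of the gene, in bins of 1 kb (WT above, Nan/+ below; centres beyond 10 kb are not drawn). The 2 WT bins beside the start hold 22 and 11 pairs, and those of Nan/+ hold 8 and 9.

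At starts covered in WT, few of the WT regions overlapped a Nan/+ region. Of the 31 WT regions over start windows, 4 overlapped a Nan/+ region, or 12.9% (3.63 to 29.8). Among 3244 WT regions over start windows of other genes, 40.3% (38.6 to 42.0) did. The other 27 regions lay 0.675 to 111 kb from the nearest Nan/+ region, with a median gap of 27.3 kb, and 20 of them more than 10 kb away. Gaps were not measured at the starts of other genes. Whether these gaps, or those given above for named genes, are wide was therefore not tested. Of the 30 genes with a WT region over the start window, 16 had a Nan/+ region somewhere in the gene or flanks and 14 had none. The like split was not computed for other genes. In the reverse direction 4 of the 13 Nan/+ regions overlapped a WT region, or 30.8% (9.09 to 61.4), against 59.9% (57.8 to 62.0) at other genes.

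Width moved with this contrast. WT regions over these starts were narrower than those over other starts, with a median of 400 bp against 512 bp, and over other starts the share that overlapped the Nan/+ list ran from 26.5% in the narrowest to 48.6% in the widest of 4 width classes. Other start regions in these classes, weighted by the respiratory chain regions in each, overlapped the Nan/+ list in 36.9% of cases in WT, beside 12.9% for respiratory chain genes. For Nan/+ the like figure was 53.4%, beside 30.8%. Width is the only measure of size in these lists and depends on the calling settings; the part of signal strength in the contrast was not tested.

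Other gene families with housekeeping roles had WT regions at starts as often. Start windows were covered in WT at 33.3% of 69 mitochondrial ribosomal protein genes, 44.2% of 43 proteasome genes and 50.0% of 64 cytoplasmic ribosomal protein genes, so WT coverage of starts was near that of these families. In Nan/+ the values were 27.5%, 25.6% and 26.6%, beside 16.7% for respiratory chain genes. As a share of the genes covered in WT, those covered in both lists were 43.5% (23.2 to 65.5), 36.8% (16.3 to 61.6) and 31.2% (16.1 to 50.0), beside 13.3% (3.76 to 30.7) here and 39.4% of all genes. As a share of the genes covered in Nan/+ they were 52.6%, 63.6% and 58.8%, beside 30.8% here and 61.8% of all. The interval of the respiratory chain genes overlaps that of each family, and the differences between families were not tested.

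Over the gene and its 10 kb flanks the genotypes looked more alike. A region was assigned to 47 of 96 genes in WT, or 49.0% (38.6 to 59.4), against 31.1% of genes of like length and 33.5% of all, and to 43 in Nan/+, or 44.8% (34.6 to 55.3), against 31.0% and 37.5%. There were 28 genes with regions in both lists, or 29.2%, against 19.9% of genes of like length and 23.5% of all. WT alone had 19, or 19.8%, against 11.2% and 10.1%. Nan/+ alone had 15, or 15.6% (9.02 to 24.5), against 11.1% and 14.1%, which is near the share of all genes. Of the 18 genes without a start window 6 had a region in WT and 7 in Nan/+, among them Ndufb9 and Uqcrq in both lists. Neither list had a region at 34 genes, or 35.4%, against 57.8% of genes of like length and 52.4% of all. Among them were Ndufa9, Ndufv1, Cox5a, Cox5b and Cox6c. The genes are short, with a median of 7.23 kb against 17.4 kb for all, so these windows consist mostly of flanks: with gene bodies alone the counts were 15 in WT and 20 in Nan/+, and the WT excess over genes of like length fell from 17.9 to 1.84 percentage points.

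**Figure D4:**
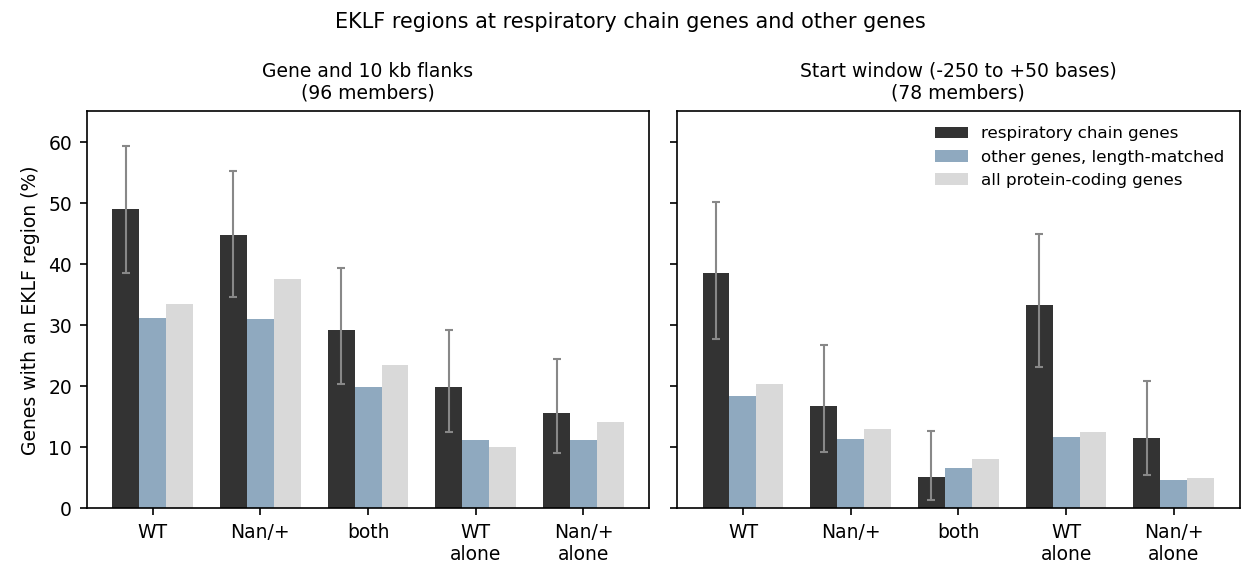
Percentage of genes with an EKLF region in WT, in Nan/+, in both or in 1 list alone (left: gene and 10 kb flanks, 96 members; right: start window, 78 members), for respiratory chain genes (black, with exact binomial 95% intervals), other genes of like length (blue) and all protein-coding genes (grey). Bars for WT alone at the start window stand at 33.3% for respiratory chain genes and 11.7% for genes of like length, whereas those for both lists stand at 5.13% and 6.62%.

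Over all member regions the share that overlapped the other list was 22.1% in WT (12.9 to 33.8) and 20.5% in Nan/+ (12.0 to 31.6), and both intervals hold the share of the whole list, 24.5% and 14.7%. Of the 28 genes with regions in both lists, 14 had a WT region that overlapped a Nan/+ region and 14 did not. This split was not computed for all genes with regions in both lists. The 15 overlapping WT regions comprised the 4 over start windows of the members and 11 elsewhere. Of these 11, 9 lay over the start window of a neighbour outside the chain: Smdt1 beside Ndufa6, Gamt and Dazap1 beside Ndufs7, Smim15 beside Ndufaf2, Mbd3 beside Uqcr11, Otub1 beside Cox8a, Taf3 beside Atp5c1, Midn beside Atp5d and Ube2z beside Atp5g1. By WT width the widest of these were the regions at Mbd3 (1494 bp) and Gamt (1336 bp), and by width of the overlapping Nan/+ region those at Midn (1786 bp) and Mbd3 (1072 bp).

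Many of these genes had a close neighbour on the opposite strand. A second protein-coding start on the opposite strand lay within 1 kb of the start in 24 of the 78 genes, or 30.8%, against 9.73% of all genes. Among these 24 genes 41.7% had a WT region over the window, and among the other 54 genes 37.0% did, beside 45.0% and 17.8% for all genes of these classes. Of the 68 WT regions assigned to members 64, or 94.1%, could be assigned to a gene outside the chain too. Of the 73 Nan/+ regions 63, or 86.3%, could. In the whole lists 90.8% of WT and 86.0% of Nan/+ regions had any gene outside the chain in reach. That is not a like measure, since it asks for 1 gene and not for a second. With each region given to its nearest gene alone, 26 genes kept one in WT and 29 in Nan/+. Which gene of a pair a region acts on, if any, was not tested.

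The start windows shared sequence features that the rule did not use. The NRF1 motif (GCGCANGCG) was found in 22 of 78 members, or 28.2%, against 9.73% of all genes with a window. The ETS motif (CCGGAAG) was found in 24.4% against 13.1%, and the YY1 motif (AANATGGC) in 24.4% against 7.53%. The EKLF site in its 4 spellings was found in 39.7% against 39.9%, a looser pattern (CCANGCCC or CCCNGCCC, which takes in CCACGCCC and CCCCGCCC) in 35.9% against 43.7%, and the GATA motif (AGATAA or TGATAA) in 17.9% against 18.2%. Both strands were searched, and a gene with 2 starts counted when either window held the motif.

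Windows covered in WT differed little in the EKLF site. It was found in 13 of the 30 members covered in WT, or 43.3%, and in 18 of the other 48, or 37.5%, whereas over all genes it was found in 60.7% of covered and 34.5% of other windows. In the 13 members covered in Nan/+ it was found in 8, or 61.5%, beside 62.3% of all genes covered in Nan/+. The ETS motif was in 12 of the 30 members covered in WT, or 40.0%, and in 7 of the other 48, or 14.6%, beside 23.8% and 10.4% over all genes. It was also in 6 of the 13 members covered in Nan/+, or 46.2%, beside 22.9% of all genes covered in Nan/+. The NRF1 motif was in 33.3% of members covered in WT and 25.0% of other members, beside 20.2% and 7.04% over all genes. The YY1 motif was in 26.7% and 22.9%, beside 11.7% and 6.45%. Among members covered in Nan/+ the NRF1 motif was in 23.1% and the YY1 motif in 30.8%. Of all genes covered in Nan/+, 19.8% and 12.6% held them. The base composition moved with coverage: the median GC content of the windows was 60.0% in members covered in WT and 57.0% in the others, and 63.2% in all genes covered in WT.

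Related genes outside the rule gave different balances. Of 41 assembly factors of complexes II to V and of complex I beyond the Ndufaf group, the WT list held a region at 22, or 53.7%, and the Nan/+ list at 26, or 63.4%, beside 32.4% and 34.6% of genes of like length. Of 36 with a window 14, or 38.9%, were covered in WT and 9, or 25.0%, in Nan/+, 6 of them in both lists, beside 20.4% and 13.0% of all genes. Among these 6 were Bcs1l, which inserts the Rieske protein, and Sdhaf1 and Sdhaf2, assembly factors of complex II. The 13 nuclear regulators had regions at 7 genes in WT, or 53.8%, and at 5 in Nan/+, or 38.5%, beside 38.7% and 43.7% of genes of like length, so the Nan/+ share lay near the background. Of 12 start windows 6, or 50.0%, were covered in WT and 2, or 16.7%, in Nan/+, the latter near the 13.0% of all genes. Nrf1 had 5 WT and 7 Nan/+ regions, 1 WT region being over a start, and Gabpa and Yy1 had 2 WT and 0 Nan/+ regions each. The 2 of Gabpa are the WT regions also assigned to Atp5j.

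The TCA cycle, which feeds electrons to the chain, had more genes with a region in Nan/+ than in WT. The counts were 10 of 14 enzyme genes in Nan/+ and 4 in WT, against 41.8% and 37.7% of genes of like length. Start windows were covered at 1 of 12 in WT, or 8.33%, and at 5 of 12 in Nan/+, or 41.7%, beside 20.4% and 13.0% of all genes. The WT gene was Cs, which encodes citrate synthase, and those in Nan/+ were Cs, Mdh2, Suclg1, Suclg2 and Sucla2. The 17 genes of ubiquinone synthesis, cytochrome c and electron transfer flavoproteins had regions at 6 in WT, or 35.3%, and at 11 in Nan/+, or 64.7%, beside 36.6% and 38.8% of genes of like length. Their start windows were covered at 3 of 14 in WT, or 21.4%, and 2 of 14 in Nan/+, or 14.3%, both near the share of all genes, and 0 in both lists. Cycs, which encodes cytochrome c, was covered in WT alone. With so few genes per list these counts are descriptions.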

How the data were processed

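Positions came from 1 peak list per genotype, which the authors made with HOMER on mm10, per the file headers, from 3 ChIP libraries against inputs (q 0.01, fold 4, and a DESeq2 step at a false discovery rate of 0.01 and log2 fold 2). Peak size and minimum distance were 125 and 250 bp in WT, 175 and 300 bp in Nan/+, per the file headers. The deposited score was 1 throughout. Per the submitters' processing notes, Bowtie2 2.1 was used.

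Genes came from a RefSeq table of GRCm38.p6, leaving out 269 on Y or the mitochondrial chromosome and 108 on alternate loci. Genes of like length were taken from 10 length strata. Python 3.11.15 and scipy 1.17.1 gave counts and exact intervals, and assignment was tested on simulated data. No test across genotypes was made. The members, lists and rules for named genes (those covered in both lists, or with most regions, or in 1 list alone) were chosen with earlier results of these data known. The width classes, motif sets in covered windows, neighbour counts and the list of tissue copies were added later. Coa1 did not match the table.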

Additional observations from a re-analysis of the deposited data

How the results depend on the processing

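No paired analysis was possible because the libraries of a genotype were merged into a single list, and for that reason no library could be left out. Of 74 alternative values 56 stayed within 1.5 times, and all 24 alternative differences from genes of like length, or from all genes where no strata were used, stayed above 0. With gene bodies alone, genes with a region numbered 15 in WT, 20 in Nan/+ and 1 in both, and the excess over genes of like length was 1.84 (WT) and 7.26 (Nan/+) percentage points. With flanks of 5 kb, 17 genes were in both. With flanks of 50 kb, 74 had a region in Nan/+ and 56 in both, and the Nan/+ excess was 22.4 points. Without length strata the Nan/+ excess was 7.28 points. With the nearest gene alone, 26 had a region in WT and 7 in both, and the WT excess was 6.61 points. With regions wider than 176 bp, 8 genes were in Nan/+ alone, 31.8% of Nan/+ regions were shared, and 11 genes had a Nan/+ centre within 1 kb of a start, an excess of 3.02 points. With equal list lengths 8 were in Nan/+ alone; ties at 176 bp were then cut by position. Gene bodies alone and the filter on width use fewer regions by construction; the cause of the other shifts was not tested. The lists give presence or absence only, with no signal value, so what depth limits could not be measured.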
